A study of Mus musculus with 5 samples.

Results

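Integrins and laminins were examined as a family of cell adhesion genes in the liver of male mice about 10 months old. Members were all genes whose symbol marks them as an integrin alpha or beta subunit or a laminin chain. They were 35 genes, 25 integrin subunits and 10 laminin chains, of 19938 genes tested. RNA from 5 livers was hybridised to Affymetrix gene arrays. The 2 control livers were normal tissue of Hdac3FL/+AlbCre+ mice and the 3 other samples were liver tumours of Hdac3FL/-AlbCre+ mice. All 5 mice thus carried a floxed Hdac3 allele and Cre driven by the promoter of albumin, a gene of hepatocytes. The controls kept a wild-type allele and the tumour-bearing mice had a null allele in its place. Every null sample was a tumour and every control was normal liver, so that loss of Hdac3 and tumour growth cannot be told apart.

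Integrins are pairs of an alpha and a beta subunit that span the plasma membrane and bind matrix proteins or receptors on other cells. Pairs that contain Itgb2, and those of Itga4, Itgae and Itgb7, are largely those of leukocytes, whereas Itga3 with Itgb1, and Itga6 with Itgb1 or Itgb4, bind laminin under epithelia. Laminins are trimers of an alpha, a beta and a gamma chain, and form the scaffold of basement membranes together with nidogen and collagen IV. Normal hepatocytes face the sinusoid across a space without a continuous basement membrane, while bile ducts and larger vessels have one.

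Values are log2 expression values, 1 per gene and array, so that a difference of 1 is a doubling. The tumour arrays differed from the controls across genes (Pearson r between 0.906 and 0.948 across all genes, which are not independent replicates), the controls from each other little (r = 0.992), and tumour 3 was the farthest from the controls. Array medians lay between 5.66 and 5.77. Hdac3, whose product is the deacetylase lost in these hepatocytes, read 8.21 and 8.37 in control livers and 6.78, 6.57 and 6.65 in the tumours (limma adjusted p = 0.00298); where its probes lie relative to the deletion was not analysed here, and probes outside it would not check the labels. Of 8 hepatocyte marker genes 1 was lower (Ttr, by 0.71 log2 units). Cps1, of the urea cycle, had the largest difference (-0.86) without passing, at 12.73 and 12.80 against 12.51, 11.12 and 12.10. Apoa1 stood at 13.00 and 12.96 in control livers and 12.83, 12.66 and 12.68 in tumours 1, 2 and 3, so hepatocyte transcripts were abundant in all 5 samples. The number of arrays limits the precision throughout.

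The promoters of members differ in base composition and in the motifs they hold. Windows of 300 bases, from 250 before to 50 after the start, were found in the RefSeq table of GRCm38.p6 for 22 of the 35 members. Each was searched on both strands for GAGGAA, the core of the box bound by the myeloid factor PU.1, and for GGGCGG, the GC box. The letters GAGGAA occur in 28.3% of all promoter windows of this length and GGGCGG in 35.7%. Shown are the neighbouring leukocyte genes Itgax and Itgam, which encode the alpha subunits of complement receptors, and 2 genes of wider expression that rose, Itgb5 and Lama5. Capitals mark either motif, in either orientation, and each sequence runs 5′ to 3′ along its gene.

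Itgax (chr7:128129300-128129599 on the plus strand): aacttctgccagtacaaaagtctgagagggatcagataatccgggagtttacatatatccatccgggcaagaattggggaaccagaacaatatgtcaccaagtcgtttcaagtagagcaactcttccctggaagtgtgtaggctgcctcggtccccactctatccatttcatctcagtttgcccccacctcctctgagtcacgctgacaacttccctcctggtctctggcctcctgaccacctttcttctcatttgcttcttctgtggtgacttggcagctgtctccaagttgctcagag

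Itgam (chr7:128062390-128062689 on the plus strand): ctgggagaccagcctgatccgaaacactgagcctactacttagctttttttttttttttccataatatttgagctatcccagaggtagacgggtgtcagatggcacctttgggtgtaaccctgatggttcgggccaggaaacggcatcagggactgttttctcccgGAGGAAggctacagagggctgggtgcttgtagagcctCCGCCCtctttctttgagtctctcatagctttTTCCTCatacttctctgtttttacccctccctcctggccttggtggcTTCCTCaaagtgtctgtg

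Itgb5 (chr16:33829415-33829714 on the plus strand): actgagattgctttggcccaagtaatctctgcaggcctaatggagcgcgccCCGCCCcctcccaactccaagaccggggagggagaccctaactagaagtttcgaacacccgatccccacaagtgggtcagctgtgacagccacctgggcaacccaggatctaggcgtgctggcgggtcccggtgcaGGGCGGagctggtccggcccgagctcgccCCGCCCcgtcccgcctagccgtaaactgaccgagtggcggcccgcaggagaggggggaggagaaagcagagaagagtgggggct

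Lama5 (chr2:180225810-180226109 on the minus strand): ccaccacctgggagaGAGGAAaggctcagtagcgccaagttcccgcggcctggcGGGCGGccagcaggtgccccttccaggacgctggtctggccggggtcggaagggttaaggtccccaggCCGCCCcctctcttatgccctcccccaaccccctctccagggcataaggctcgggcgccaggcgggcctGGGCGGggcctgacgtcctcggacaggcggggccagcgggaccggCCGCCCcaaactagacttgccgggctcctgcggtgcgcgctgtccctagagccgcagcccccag

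The Itgax window held neither motif and 5 CpG dinucleotides. The Itgam window held GAGGAA 3 times, with first bases at positions -84, -15 and 33 from the start, GGGCGG once and 6 CpG. The Itgb5 window had 3 copies of GGGCGG and 20 CpG, and that of Lama5 had 4 copies, 1 GAGGAA and 24 CpG. The median over all windows was 7 CpG, with quartiles of 3 and 20. The leukocyte genes with a window, Itgax, Itgb7, Itgam and Itga4, had 5, 5, 6 and 10 CpG. Windows of broad and mesenchymal integrins ran from 6 (Itga10) to 27 (Itgb1). Those of epithelial integrins ran from 3 (Itgb6) to 24 (Itga3), and those of laminins from 1 (Lama2) to 24 (Lama5). The ranges thus overlapped, and a difference between groups was not tested. These are matches of letters and say nothing about binding in these livers.

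Tumours had higher levels of 9 of the 35 members and lower levels of none. Those that rose were the leukocyte subunits Itgax, Itgb2 and Itga4, the laminin receptor subunit Itga6, the broadly expressed Itgav, Itgb5 and Itga5, and the laminin chains Lama5 and Lamc1. In log2 units they rose by between 0.78 (Itga5, 1.72-fold) and 3.31 (Itga6, 9.88-fold). The 9 members were 25.7% of those measured, where 5.60% of all genes tested were higher and 4.96% lower by the same rule (limma, Benjamini-Hochberg adjusted p under 0.05). With no adjustment, 14 members were higher and 1, Lama3, lower at p under 0.05. A test per gene without moderation of the spread also called 0 members lower, and 0 higher. The median log2 change of the members was 0.42 and that of all genes -0.02. In 20 members every tumour lay above both controls and in 4 every tumour lay below, 11 overlapped, and over all genes 44.2% did not overlap (21.1% above, 23.1% below). All 9 calls were lost when either control was left out, with adjusted p from 0.0526 to 0.195 without control 1 and from 0.0589 to 0.213 without control 2. They are calls of 2 arrays against 3, for which an exact permutation test of a single gene cannot go below p = 0.1.

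**Figure D1:**
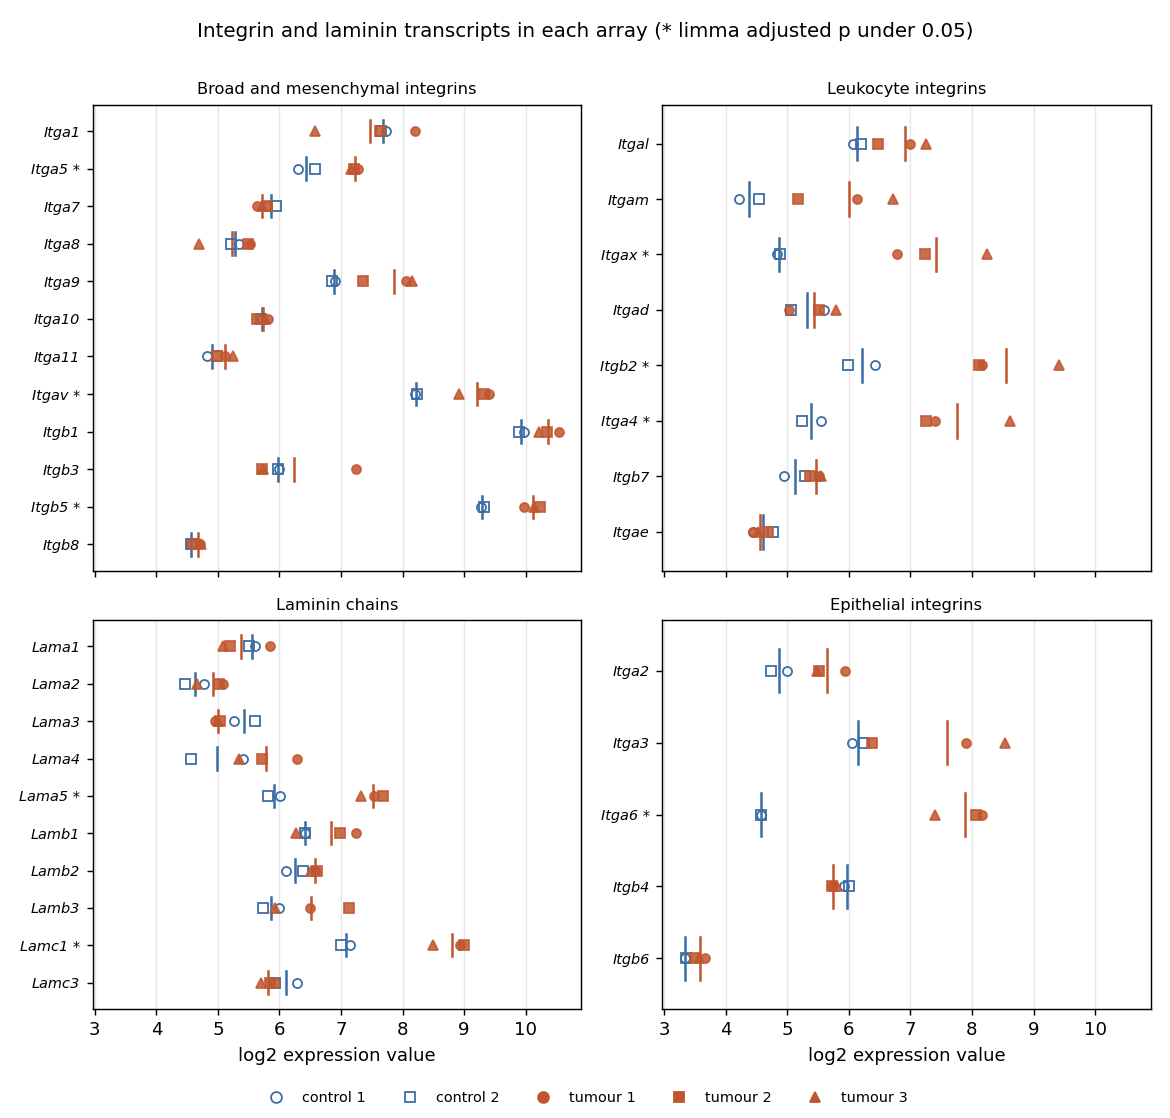
Log2 expression value of each member in each of the 5 arrays, by group of members; open blue symbols are the 2 control livers, filled orange symbols the 3 Hdac3-null tumours, short vertical lines the group means, and an asterisk marks an adjusted p under 0.05. The tumours of Itga6 (7.40 to 8.17), Itgax (6.78 to 8.24) and Lamc1 (8.50 to 9.0) sit apart from both controls, while the tumours and controls of Itgb4, Itgae and Itga10 lie close together.

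Among the leukocyte integrins, 3 of 8 rose and 0 fell (limma; 5 higher and 0 lower at p under 0.05 without adjustment), with a median log2 change of 1.20. Itgb2 encodes the beta subunit shared by LFA-1, Mac-1 and the CD11c receptor. Control livers 1 and 2 had log2 values of 6.43 and 5.99, and tumours 1, 2 and 3 had 8.17, 8.11 and 9.41. All tumours lay above both controls, tumour 3 highest, a rise of 2.35 (1.32 to 3.38, here and below the 95% confidence interval, from 2 and 3 arrays; limma adjusted p = 0.024).

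The 4 alpha subunits that pair with Itgb2 did not move by the same amount. Itgax, the CD11c subunit found on dendritic cells and many tissue macrophages, went from 4.83 and 4.88 to 6.78, 7.24 and 8.24. That is a rise of 2.56 (1.56 to 3.57; limma adjusted p = 0.0178), with controls almost equal and all tumours above them. Itgam, the CD11b subunit of neutrophils, monocytes and macrophages, had 4.22 and 4.54 in control livers and 6.14, 5.17 and 6.72 in the tumours. All its tumour values were above the controls, but they ranged over 1.54 units, and the difference of 1.63 (0.56 to 2.69) did not pass (limma adjusted p = 0.0711). Without tumour 2, the lowest of them, Itgam passed. Itgal, the LFA-1 subunit of lymphocytes, stood at 6.06 and 6.20 against 6.99, 6.47 and 7.26. Its difference of 0.77 (0.18 to 1.37) did not pass (limma adjusted p = 0.11), except without tumour 2. Itgad, the CD11d subunit, overlapped between groups, at 5.59 and 5.06 against 5.03, 5.51 and 5.79 (0.11, -0.55 to 0.78). Itgad had a second probe set, at 4.99 and 5.15 against 5.13, 4.90 and 4.93, with a difference of -0.08. Itgam, Itgax and Itgad are neighbours in that order in GRCm38.p6, and along this stretch the differences were 1.63, 2.56 and 0.11.

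Itga4 pairs with Itgb1 to form VLA-4, which binds Vcam1 and fibronectin, or with Itgb7 to form a gut-homing receptor. It rose from 5.54 and 5.24 to 7.40, 7.26 and 8.62, by 2.37 (1.35 to 3.40; limma adjusted p = 0.0233), again with tumour 3 highest. Its partner Itgb7 stood at 4.94 and 5.29 against 5.51, 5.37 and 5.54, a difference of 0.35 (-0.02 to 0.73; limma adjusted p = 0.221). Itgae, which pairs only with Itgb7 and marks lymphocytes within epithelia, overlapped at 4.44 and 4.76 against 4.44, 4.69 and 4.52 (-0.05, -0.44 to 0.33). Leukocyte integrins were highest in tumour 3 in 7 of 8 cases, where tumour 3 was the highest tumour for 46.6% of all genes.

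Markers of leukocytes moved with these subunits. Of 6 markers shared by leukocytes, 5 rose, among them Ptprc, which encodes CD45, from 6.29 and 6.38 to 8.50, 8.49 and 9.58. The rise of Ptprc was 2.52 log2 units, beside 2.35 for Itgb2, 2.37 for Itga4 and 2.56 for Itgax. The summed level of the list on the linear scale was 527 to 555 in the controls and 2169 to 4725 in the tumours. Of 14 macrophage markers 8 rose, including Cd68 by 3.02, the complement gene C1qc by 3.33 and lysozyme (Lyz2) by 2.26, with sums of 1519 to 2073 and 5899 to 10540. Those called were 83.3% of the shared list and 57.1% of the macrophage list, against 10.6% of all genes called in either direction. The other 6 macrophage markers did not pass, and 4 of them, chosen here after their values were seen, overlapped between groups. The resident Kupffer cell marker Clec4f stood at 7.51 and 7.87 against 9.28, 6.37 and 5.03 (-0.80), and Vsig4 at 7.07 and 7.82 against 9.84, 7.34 and 4.55 (-0.20). Timd4 differed by 0.36 and Marco by 0.23. Clec4f, Vsig4 and Timd4 were lowest in tumour 3, where 7 of the 8 leukocyte integrins were highest. The part of cell number in the changes of the integrins was not tested, and more leukocytes cannot be told apart from more RNA per leukocyte in whole tissue.

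Of 10 neutrophil markers 0 passed (limma; 1 higher at p under 0.05 without adjustment), and 8 lay above the control mean. Csf3r, the receptor of a neutrophil growth factor, had the smallest p, at 5.42 and 5.14 against 6.16, 5.89 and 5.53 (a difference of 0.58). Ly6g stood at 3.82 and 3.38 against 3.29, 3.34 and 3.40, under the lower quartile in both groups. The summed level of the neutrophil list was 239.9 to 247.7 in controls and 249.4 to 339.1 in tumours. Of 14 T and NK cell markers 0 passed (4 higher without adjustment), and their sum of 438 to 444.1 in the controls stood beside 578 to 585.3 in tumours 1 and 2 and 1425 in tumour 3. Cd3g, a chain of the T cell receptor complex, had the largest difference of the list, at 3.88 and 4.18 against 5.06, 5.61 and 8.06. Cd3e and Cd3d, also of that complex, differed by 0.36 and 0.32, and Thy1 and Cd8a by 0.66 and 1.27. Of the 14 markers 12 lay above the control mean and 2 below. The highest values of Itgal, Itga4 and Itgb2 were in tumour 3, the highest tumour for 46.6% of all genes. In limma, 0 of 4 B cell, 0 of 7 dendritic cell and 0 of 4 platelet markers passed (at p under 0.05 without adjustment, Cd79b was higher, Zbtb46 lower, Pf4 higher and Ppbp lower). The platelet integrin subunit Itga2b, which the rule for members does not take in, stood at 6.10 and 6.09 against 6.11, 6.07 and 5.92. Itgb2l, a relative of Itgb2 also outside the rule, stood at 5.79 and 5.62 against 5.55, 5.66 and 5.40.

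**Figure D2:**
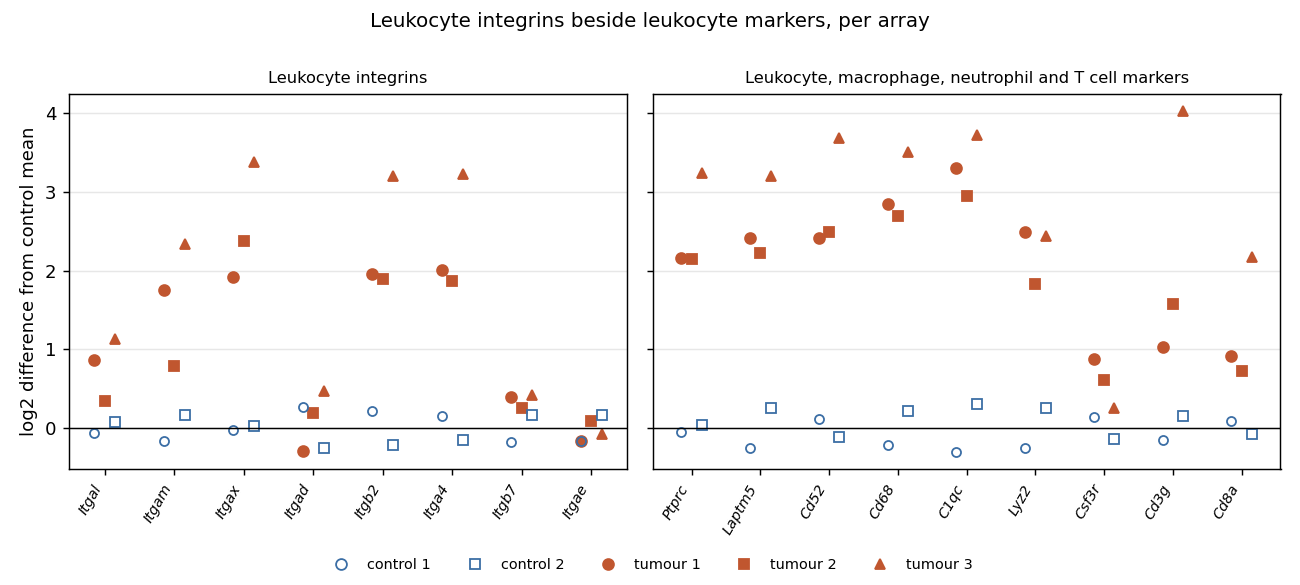
Log2 difference of each array from the mean of the 2 controls, for the 8 leukocyte integrins (left) and for 9 markers of leukocytes, macrophages, neutrophils and T cells (right); open blue symbols are controls and filled orange symbols tumours. Itgax, Itgb2 and Itga4 have all 3 tumours well above both controls and tumour 3 on top, as Ptprc does; Itgad, Itgb7 and Itgae stay near 0.

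Of the 5 epithelial integrins, 1 rose and 0 fell (limma; 2 higher and 0 lower at p under 0.05 without adjustment). Itga6, the laminin-binding subunit of epithelial and endothelial cells, had the largest change of all 35 members. Both controls had a log2 value of 4.57, and tumours 1, 2 and 3 had 8.17, 8.06 and 7.40. All tumours were above both controls, tumour 3 lowest, a change of 3.31 (2.70 to 3.91; limma adjusted p = 0.00244). Without control 1 or control 2 its adjusted p was 0.0526 and 0.0589. Itgb4 pairs only with Itga6, in the hemidesmosomes that anchor epithelia. It was slightly lower in every tumour, at 5.92 and 6.01 against 5.72, 5.73 and 5.81, and the difference of -0.21 (-0.50 to 0.08) did not pass (limma adjusted p = 0.34). The interval of Itgb4 lay wholly below that of Itga6. The other partner of Itga6 is Itgb1, described below with the broad subunits.

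Itga3, the second laminin-binding alpha subunit of epithelia, varied most among the tumours of all members, over a range of 2.15 log2 units. It stood at 6.05 and 6.25 in control livers and 7.90, 6.37 and 8.53 in the tumours, so tumour 2 was close to the controls and the others were far above. Its difference of 1.45 (-0.02 to 2.91) did not pass (limma adjusted p = 0.203), and did without tumour 2. Itga2, a collagen and laminin receptor of epithelia and platelets, was higher in every tumour, at 5.00 and 4.74 against 5.93, 5.51 and 5.48. Its difference of 0.77 (0.32 to 1.23) just missed the threshold (limma adjusted p = 0.0528), and passed with a variance trend, with array weights, with a replicate block and without tumour 3. Itgb6, the epithelial partner of Itgav, was under the lower quartile in both groups (3.33 and 3.35 against 3.67, 3.50 and 3.56), so it was not shown to be above background.

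Of the markers of bile duct epithelium, 6 stood above the control mean and 1 below, without passing. Of 7 such markers 0 passed (limma; 4 higher and 0 lower at p under 0.05 without adjustment), and their summed linear level was 229 to 234 in the controls and 393 to 849 in the tumours. Krt19, a keratin of bile ducts, stood at 4.87 and 5.05 against 6.35, 5.80 and 7.78. Krt19 was highest in tumour 3, as Itga3 was, and Cldn4 in tumour 2 (5.70 and 5.91 against 6.15, 7.53 and 6.75). Cd24a had the largest difference (2.85), at 3.95 and 3.27 against 6.07, 4.72 and 8.58. Sox9 overlapped between groups (0.08). Cftr was lower in every tumour (-0.39), under the lower quartile in both groups. The list's median differences from the controls were 0.68, 0.58 and 0.39 in tumours 1, 2 and 3, lowest in tumour 3, as Itga6 was. Its summed level had the reverse order, at 393, 426 and 849, highest in tumour 3. The order of the tumours thus depends on the summary used. The part of bile duct cells in the levels of epithelial integrins was not tested.

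Of the 12 broad and mesenchymal integrins, 3 rose and 0 fell (limma; 5 higher and 0 lower at p under 0.05 without adjustment), with a median of 0.23. Itgav binds ligands with the RGD motif and helps to release active TGF-beta. It rose from 8.20 and 8.23 to 9.40, 9.33 and 8.91, by 1.0 (0.55 to 1.44; limma adjusted p = 0.0249). Of the 4 beta subunits that pair mainly with Itgav, 1 rose. This was Itgb5, which with Itgav binds vitronectin, at 9.27 and 9.32 against 9.98, 10.24 and 10.13, by 0.83 (0.50 to 1.15; limma adjusted p = 0.0177). The others were Itgb3, at 6.0 and 5.97 against 7.25, 5.71 and 5.73, Itgb6 as above, and Itgb8, at 4.57 in both controls against 4.71, 4.60 and 4.72. For Itgb3, a subunit of osteoclasts, platelets and growing vessels, tumour 1 alone was high and the other tumours were below the controls.

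Itgb1, the common partner of most alpha subunits outside the leukocyte group, was higher in every tumour, at 9.98 and 9.89 against 10.54, 10.34 and 10.22. Its difference was small, 0.43 (0.08 to 0.78), and did not pass (limma adjusted p = 0.124). Itga5, the fibronectin receptor subunit, rose from 6.30 and 6.57 to 7.28, 7.21 and 7.16, by 0.78 (0.45 to 1.12; limma adjusted p = 0.023), with tumours that ranged over 0.12 only. Itga9, which binds tenascin and Vcam1, was above both controls in every tumour, at 6.91 and 6.85 against 8.06, 7.36 and 8.15, but did not pass (0.98, 0.35 to 1.60; limma adjusted p = 0.0671), except without tumour 2. Conversely Itgav, Itgb5 and Itga5 lost their calls without tumour 2, where adjusted p of the 9 genes reached 0.0723.

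Itga1, the collagen receptor subunit of sinusoidal and stromal cells, ran from above to below the controls across tumours. It had 7.73 and 7.65 in control livers, then 8.21, 7.63 and 6.57 in tumours 1, 2 and 3 (-0.22, -1.33 to 0.89; limma adjusted p = 0.831), a difference that was 0.23 without tumour 3. Its neighbour Itga2 was higher in all tumours. Itga8, of stellate and other contractile cells, was likewise lowest in tumour 3, at 5.34 and 5.22 against 5.52, 5.49 and 4.69. Endothelial markers had median differences from the controls of 0.68, 0.28 and -0.62 in tumours 1, 2 and 3, and markers of stellate cells and fibroblasts 1.12, 0.23 and -0.87, the same order as Itga1. Their part in Itga1 and Itga8 was not tested. The muscle subunit Itga7 and the cartilage subunit Itga10 had differences of -0.15 and 0.03, and the latter changed sign with the array medians set equal or with repeated quantile normalisation. The fibroblast collagen receptor Itga11 differed by 0.21.

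**Figure D3:**
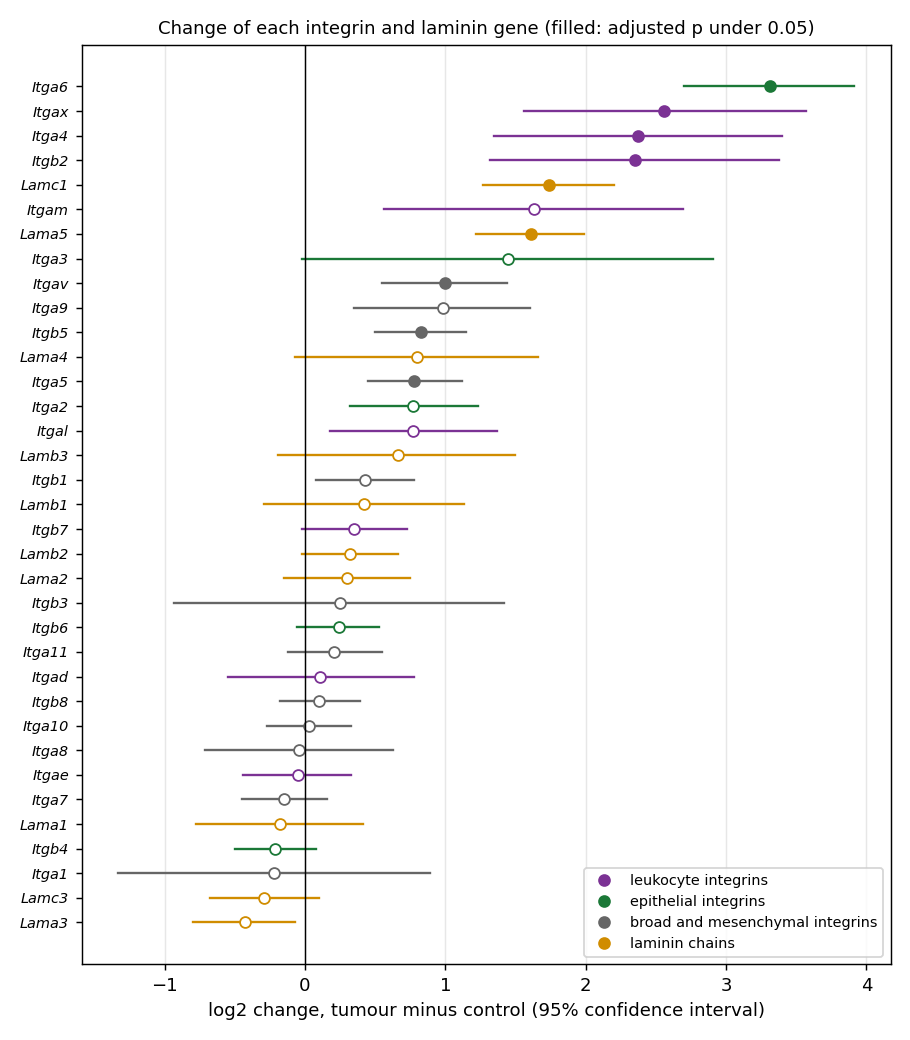
Log2 change, tumour minus control, of the 35 members with the 95% confidence interval of the fit as a horizontal line, coloured by group; filled points have an adjusted p under 0.05. The filled points run from 0.78 (Itga5) to 3.31 (Itga6), and no filled point lies left of 0.

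Of the 10 laminin chains, 2 rose and 0 fell (limma; 2 higher and 1 lower at p under 0.05 without adjustment), with a median of 0.37. Lamc1, the gamma chain of most laminins, rose from 7.15 and 7.0 to 8.94, 9.0 and 8.50, by 1.74 (1.27 to 2.20; limma adjusted p = 0.00578). Lama5, the alpha chain of the laminins of epithelia and adult vessels, rose from 6.01 and 5.82 to 7.54, 7.69 and 7.33, by 1.61 (1.22 to 1.99; limma adjusted p = 0.0044). In both genes the tumours were close together and far from the controls.

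The beta chains that would complete a trimer with Lama5 and Lamc1 did not pass. Lamb1 stood at 6.42 and 6.41 against 7.24, 6.99 and 6.27, so that tumours 1 and 2 were above and tumour 3 below the controls (0.42, -0.29 to 1.13; limma adjusted p = 0.444). Without tumour 3 Lamb1 passed. Lamb2 was a little higher in every tumour, at 6.11 and 6.39 against 6.58, 6.61 and 6.52 (0.32, -0.02 to 0.66; limma adjusted p = 0.217).

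The remaining alpha chains did not pass the test, and their difference from Lama5 was not tested. Lama4, of vessels, stood at 5.41 and 4.56 against 6.28, 5.72 and 5.34, and its controls were themselves far apart (0.80, -0.07 to 1.66; limma adjusted p = 0.233). Lama3, of the laminin that anchors epithelia through Itga6 and Itgb4, was lower in every tumour, at 5.26 and 5.61 against 4.95, 5.04 and 5.00, without passing (-0.43, -0.80 to -0.07; limma adjusted p = 0.131). Lamb3, a beta chain of epithelial laminin, went the other way in tumours 1 and 2, at 5.99 and 5.73 against 6.49, 7.13 and 5.92 (0.66, -0.19 to 1.50). The muscle chain Lama2 differed by 0.30 and the embryonic chain Lama1 by -0.18. Lamc3 was lower in every tumour, tumour 1 by less than 0.01 from the lower control, at 6.29 and 5.93 against 5.93, 5.84 and 5.70 (-0.29, -0.68 to 0.10).

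Tumour 3 had the lowest value of the tumours for 9 of 10 laminin chains, against 28.4% of all genes. The members outside the leukocyte group that rose had tumour 3 lowest in 5 of 6 cases, and the leukocyte integrins that rose had it highest in 3 of 3. The summed linear level of endothelial markers was 2597 to 2921 in control livers, beside 4568, 2786 and 1347 in tumours 1, 2 and 3. That of stellate cell and fibroblast markers was 1949 to 2034 in control livers, beside 3585, 1931 and 722 in the tumours. Of each list of 10 markers 1 rose, Emcn by 2.11 and Acta2 by 2.44, and 0 fell (limma, with 2 higher and 0 lower in each without adjustment). That is 10.0% of each list, near the 10.6% of all genes called in either direction. Of the endothelial markers 5 lay above and 5 below the control mean, down to -2.29 for Clec4g. Of the stellate cell and fibroblast markers 6 lay above and 4 below, down to -1.64 for Reln. The endothelial marker Pecam1 was above both controls in every tumour (a difference of 1.27), without passing. The same held for the stellate cell and fibroblast markers Pdgfrb (1.26) and Col3a1 (0.81). Sums weigh the brightest genes most, such as Dcn, at 10.07 and 10.14 against 10.60, 9.61 and 7.22. The sums of both lists were lowest in tumour 3, as the laminins were, and their part in that order was not tested.

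Genes whose products bind integrins or lie beside laminins were examined as 3 lists. Of 20 basement membrane partners and other laminin receptors, 6 rose and 0 fell (limma; 8 higher and 1 lower without adjustment), or 30.0% against 10.6% of all genes called in either direction. Nid1, which joins laminin to collagen IV, rose from 6.39 and 6.02 to 10.55, 10.29 and 9.12, by 3.78 log2 units (13.8-fold). The collagen IV chains Col4a1 and Col4a2 rose by 1.68 and 1.59, whereas Col4a3, Col4a4, Col4a5 and Col4a6 overlapped between groups (-0.03, -0.01, 0.01 and -0.15). The 1 lower without adjustment was Col18a1, at 9.94 and 9.99 against 9.11, 9.44 and 8.73 (-0.87, limma adjusted p = 0.0596). Cd151, a tetraspanin that associates with laminin-binding integrins, rose by 1.33, and the linker proteins of hemidesmosomes Dst and Plec by 2.15 and 1.03. These linkers also serve other parts of the cytoskeleton. The median over the list was 0.42.

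Of 23 other integrin ligands, 6 rose and 0 fell (limma, with 10 higher and 1 lower without adjustment). These 6 were 26.1% of those measured, against 10.6% of all genes called in either direction. Spp1 and C3, also listed, were not among the genes tested. Some counter-receptors of the leukocyte subunits rose and others did not pass. Vcam1, the ligand of Itga4 with Itgb1, rose from 6.24 and 6.12 to 8.48, 8.55 and 10.17, by 2.89. Icam1, a ligand of Itgal and Itgam with Itgb2, rose from 6.43 and 6.37 to 7.97, 8.05 and 8.68, by 1.84. Both were highest in tumour 3, like Itgb2 and Itga4. The junction protein F11r, which binds LFA-1, rose by 1.59. Of the ligands that did not pass, named after their values were seen, Icam2 differed by 0.15, Madcam1 by 0.18, Fn1 by 0.22 and Jam3 by -0.12. Those higher only without adjustment were Thbs1 (1.75), Jam2 (1.50), Col1a1 (1.21) and Ccn1 (0.97). The 1 lower without adjustment was Vtn, which encodes vitronectin, at 12.09 and 12.23 against 11.54, 11.42 and 11.74 (-0.59, limma adjusted p = 0.0577). Mfge8, the bridge between dying cells and Itgav pairs, had the largest change of the list, from 6.57 and 6.41 to 10.76, 10.86 and 10.82, by 4.32. Cdh1, the ligand of Itgae with Itgb7, rose by 2.93, and Tgfb1, whose latent form Itgav pairs bind, by 1.66.

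Of 26 adaptors and kinases on the inner face of integrins, 8 rose and 0 fell (limma, with 14 higher and 2 lower without adjustment). These 8 were 30.8% of those measured, against 10.6% of all genes called in either direction. Ptk2 and Nedd9, also listed, were not among the genes tested. Flna, the actin crosslinker filamin A, rose from 6.57 and 6.47 to 8.71, 8.61 and 8.71, by 2.15. Vasp rose by 1.34, Pxn, which encodes the focal adhesion scaffold paxillin, by 0.97, the kinase gene Src by 0.94, Actn4 by 0.80 and Lims1 by 0.73. Of the called genes of these 3 lists that are named here, Flna, Cdh1 and Mfge8 kept their calls with any array left out. The others lost theirs without control 1 or control 2, and Plec and Lims1 also without tumour 2.

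**Figure D4:**
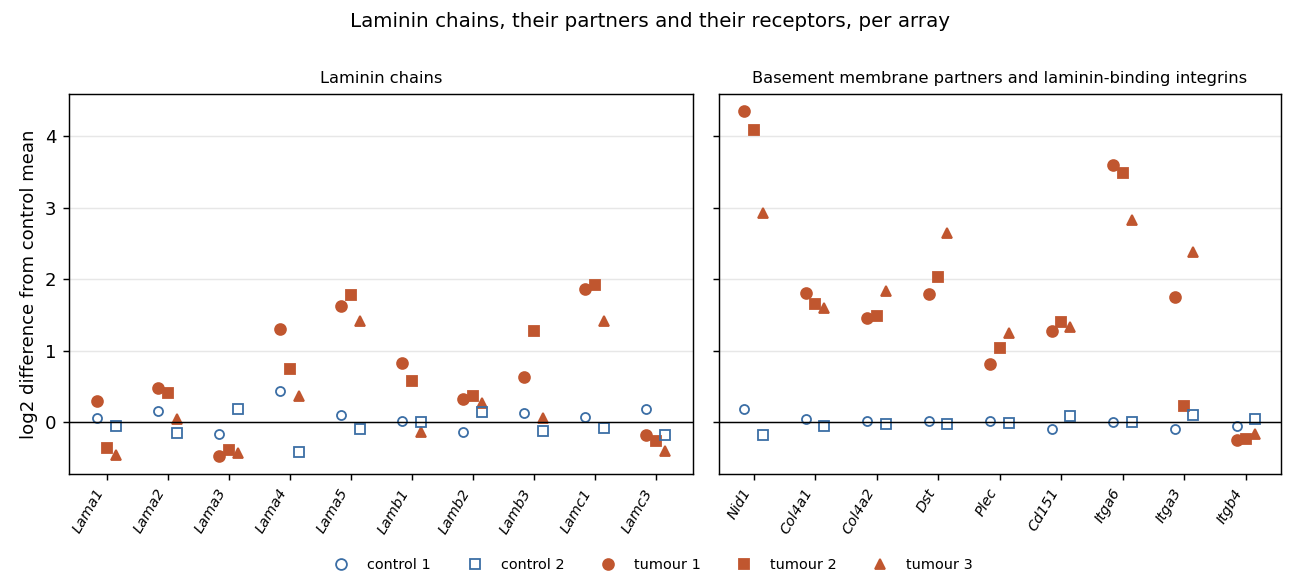
Log2 difference of each array from the mean of the 2 controls, for the 10 laminin chains (left) and for 6 basement membrane partners and 3 laminin-binding integrin subunits (right); open blue symbols are controls and filled orange symbols tumours. Lama5, Lamc1, Nid1 and Itga6 have all tumours above both controls with tumour 3 lowest, whereas Itgb4 and Lama3 have all tumours below.

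Read by known partners, complete sets of subunits called higher were few. A partner that did not pass was not shown to be unchanged. Itgb1 was above both controls in every tumour without passing, and a simulated shift of 0.5 log2 units was found in 1% of cases. Of the pairs examined, both subunits rose only for Itgax with Itgb2 (2.56 and 2.35) and Itgav with Itgb5 (1.0 and 0.83). For Itga6 with Itgb4 the differences were 3.31 and -0.21, and for Itga6 with Itgb1 3.31 and 0.43. Of the laminin trimers examined, none had all chains called higher. The trimers of Lama5 and Lamc1 with Lamb1 or Lamb2 had 2 of 3 chains higher (limma). RNA levels of subunits say nothing on how many pairs or trimers reach the cell surface or the matrix.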

How the data were processed

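Transcripts were measured on Affymetrix gene arrays with the WT Sense kit, per the labels. The authors deposited log2 expression values, 1 per probe set and array, and GCOS and RMA are named in the submitters' processing notes without version or role. RMA compresses low values. The sources used here give no build or probe set annotation. Of 28853 probe sets, 21789 had 1 gene symbol in the platform's annotation, 1621 several and 5443 none; the last 2 kinds were left out. Each of 19938 genes was represented by its brightest probe set on average over the arrays (35 members, 36 probe sets). Tumour and control arrays were compared in limma 3.58.1 (lmFit, then eBayes; R 4.3.3), two-sided, with 3 residual and 2.98 prior degrees of freedom and Benjamini-Hochberg adjustment over all genes (threshold 0.05). The labels call arrays of a group biological replicates. Confidence intervals are 95%. A gene was held not shown above background where both group means were under the mean lower quartile (25%) of their arrays (4.34 and 4.31). The members, the lists and their groups were chosen with earlier results of these data known, so lists have counts and medians but no test. The rule for named genes took in all members, Hdac3, Itga2b, Itgb2l, and the genes of smallest p in each list (up to 6 per pathway list and 3 per marker list). Not all of these are described. Other list genes named here, such as Cd3e, Cd3d, Sox9, Cftr, Reln and Dcn, were picked outside the rule with their values known. In 10 simulated runs, with 200 changed among 19938 genes, a shift of 0.5 log2 units was found in 1% of cases, 1 unit in 57.4% and 2 units in 96.4%. Of the simulated calls, 6.77% were false. The simulation used independent noise and few changed genes, so it does not give the false share of the calls made here. Replicate numbers did not pair the arrays by the labels. Python 3.11.15, pandas 2.3.3 and matplotlib 3.10.9 were used.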

Additional observations from a re-analysis of the deposited data

How the results depend on the processing

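The 9 calls among members kept their direction under every alternative run, and the count of members called lower was 0 under each. The 9 were also called after repeated quantile normalisation, with arrays shifted to a common median, without the dimmest 40% of genes, with the mean of all probe sets and with all probe sets as separate features. The count was 10 with a variance trend and robust settings, 11 with array weights, 3 at an adjusted p under 0.01 and 0 in an ordinary test per gene (18 of all genes called). Leaving out 1 array gave counts from 0 (without control 1 or control 2) to 11, and 129 and 108 calls over all genes without those controls, against 2106. With the dimmest genes left out, which removed 12 of 35 members, median log2 changes went from 1.20 to 2.36 for leukocyte integrins, from 0.77 to 1.45 for epithelial integrins, from 0.23 to 0.43 for broad and mesenchymal integrins and from 0.37 to 0.66 for laminin chains.

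With the replicate number as a block, 12 members were higher, the 9 and Itga2, Lama4 and Lamb1. Tumour 3 has no control of its number, so this fit rests on 1 residual degree of freedom. Deviations of same-numbered arrays were hardly correlated (0.00388 and -0.0129). The deviations of the 2 controls from their mean mirror each other, so these values are not independent. They cannot decide whether same-numbered arrays were paired. Differences near 0 changed sign in uncalled members. These were Itgad (-0.06), Itga1 (0.23) and Itga8 (0.23) with the block, Itga8 with array weights (0.09), and Itga10 with quantile normalisation (-0.05) and a common median (-0.07). With 1 array left out, differences ranged from -0.15 to 0.38 for Itgad, from -0.21 to 0.11 for Itgae, from -0.59 to 0.23 for Itga1, from -0.19 to 0.23 for Itga8, from -0.01 to 0.08 for Itga10 and from -0.26 to 0.50 for Itgb3. Group medians ranged from 0.93 to 1.52 (leukocyte), 0.63 to 0.90 (epithelial), 0.15 to 0.36 (broad) and 0.27 to 0.57 (laminin chains).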
